A study of Caenorhabditis elegans with 12 samples.

Results

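Translation factors eIF2, eIF2B and eIF4A3 were followed in adult Caenorhabditis elegans through 3 genes, eif-2Bepsilon, eif-2gamma and eif-4A3, out of 8187 named genes on the array. They were chosen by their measured LiCl minus control difference, a fall in worms given lithium chloride (LiCl), and because the epsilon subunit of eIF2B is a known substrate of the kinase GSK-3, which lithium inhibits. All probes carrying these names were taken, 4 of 22370: number 3634 for eif-2Bepsilon, 1755 for eif-2gamma, and 11647 (first) and 18793 (second) for eif-4A3. In the RefSeq WBcel235 annotation eif-2Bepsilon lies on chromosome II and the other two genes on chromosome I.

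Samples were pellets of 50 picked wild-type N2 hermaphrodites, grown at 20 °C from eggs and moved to 25 °C for the 48 h of treatment. The 6 control samples had no LiCl and the 6 LiCl samples had 10 mM, and the submitters describe all as separately grown. RNA of each sample, amplified and labelled with Cy5, was hybridised on its own array against a Cy3-labelled pool of mixed-stage N2 RNA. Whole worms were used, so fewer cells of a type and less RNA per cell cannot be told apart.

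In every eukaryote, eIF2 carries the initiator methionyl-tRNA to the small ribosomal subunit as a complex with GTP, and eIF2gamma is the subunit that binds both. After each round eIF2 is left with GDP, and eIF2B exchanges it for GTP, with eIF2Bepsilon as the catalytic subunit. In mammals GSK-3 phosphorylates eIF2Bepsilon and lowers this exchange, and stress kinases that phosphorylate eIF2alpha block it. eIF4A3 is a DEAD-box helicase related to the initiation factor eIF4A. In human cells it anchors the exon junction complex, which marks spliced mRNA and feeds nonsense-mediated decay, rather than acting in ordinary initiation. The initiation factor list used below includes eif-4A3 by its name only.

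Values are deposited log ratios, sample over reference, read as log2. Their scale factor and direction are not stated. The direction is likely from the dyes in the labels, and with the ratio turned every log ratio and difference here would change sign. Array medians lay between 0.018 and 0.044, interquartile ranges between 1.33 and 1.34, and correlations between arrays between 0.523 and 0.779. Of the tissue marker lists, the mean over 12 germline and meiosis genes was 1.06 ± 0.11 (SD, n = 6) in control, and that over 24 neuropeptide genes was -1.20 ± 0.093 (SD, n = 6). Muscle and cuticle lists held no named probe. Probe sequences were not used here, and whether a probe also binds a related transcript was not tested.

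The catalytic eIF2B subunit gene eif-2Bepsilon had control log ratios of 0.21, 0.42, 0.39, 0.47, 0.37 and 0.044 in replicates 1 to 6. The LiCl log ratios were -0.88, -0.053, -0.043, -0.10, -0.24 and -0.51 in replicates 1 to 6. All 6 control arrays lay above 0 and all 6 LiCl arrays below it, with LiCl replicate 1 far down and control replicate 6 closest to the LiCl group. The control mean was 0.32 ± 0.16 (SD, n = 6) and the LiCl mean -0.31 ± 0.33 (SD, n = 6), so LiCl minus control was -0.62 ± 0.17 (SE). A gap of 0.088 separated the lowest control array from the highest LiCl array.

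The GTP- and tRNA-binding eIF2 subunit gene eif-2gamma had control log ratios of 0.080, 0.44, 0.13, 0.43, 0.20 and 0.14. Its LiCl log ratios were -0.63, -0.12, -0.20, -0.12, -0.34 and -0.21. As for eif-2Bepsilon, the groups lay on opposite sides of 0 and LiCl replicate 1 was the lowest array. Group means were 0.24 ± 0.16 (SD, n = 6) and -0.27 ± 0.20 (SD, n = 6), a difference of -0.50 ± 0.14 (SE), and the gap between the groups was 0.20. Its spread within groups was narrow, with a pooled SD of 0.18, and 3.99% of all probes had a smaller one. For eif-2Bepsilon the pooled SD was 0.26, with 17.3% of probes below it.

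The helicase gene eif-4A3 gave a different picture on each of its 2 probes. On the first, the control log ratios were 0.28, 0.078, 0.41, -0.020, 0.44 and 0.34, and the LiCl log ratios were -1.22, -0.47, -0.28, -0.37, -0.41 and -0.054. All LiCl arrays lay below all control arrays, by a gap of only 0.034 between LiCl replicate 6 and control replicate 4, and LiCl replicate 1 stood far below the rest. The first probe differed by -0.72 ± 0.19 (SE), with a control mean of 0.25 ± 0.19 (SD, n = 6) and a LiCl mean of -0.47 ± 0.39 (SD, n = 6).

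On the second eif-4A3 probe the control log ratios were 0.89, 0.92, 1.30, 0.12, 0.73 and 1.32, and the LiCl log ratios were 0.17, 0.58, 1.15, 1.05, 0.26 and 1.25. The groups overlapped over nearly their whole range, and the lowest array of all was control replicate 4. Its means were 0.88 ± 0.44 (SD, n = 6) and 0.74 ± 0.47 (SD, n = 6), a difference of -0.14 ± 0.26 (SE). Within each array the second probe exceeded the first by 0.63 ± 0.34 (SD, n = 6 control arrays) or 1.21 ± 0.30 (SD, n = 6 LiCl arrays), and the ranges overlapped, 0.14 to 0.98 against 0.68 to 1.43. Averaged over both probes, control arrays had 0.57 ± 0.29 (SD, n = 6) and LiCl arrays 0.14 ± 0.41 (SD, n = 6), which overlapped and differed by -0.43. Which of the probes follows the eif-4A3 transcript was not tested.

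**Figure D1:**
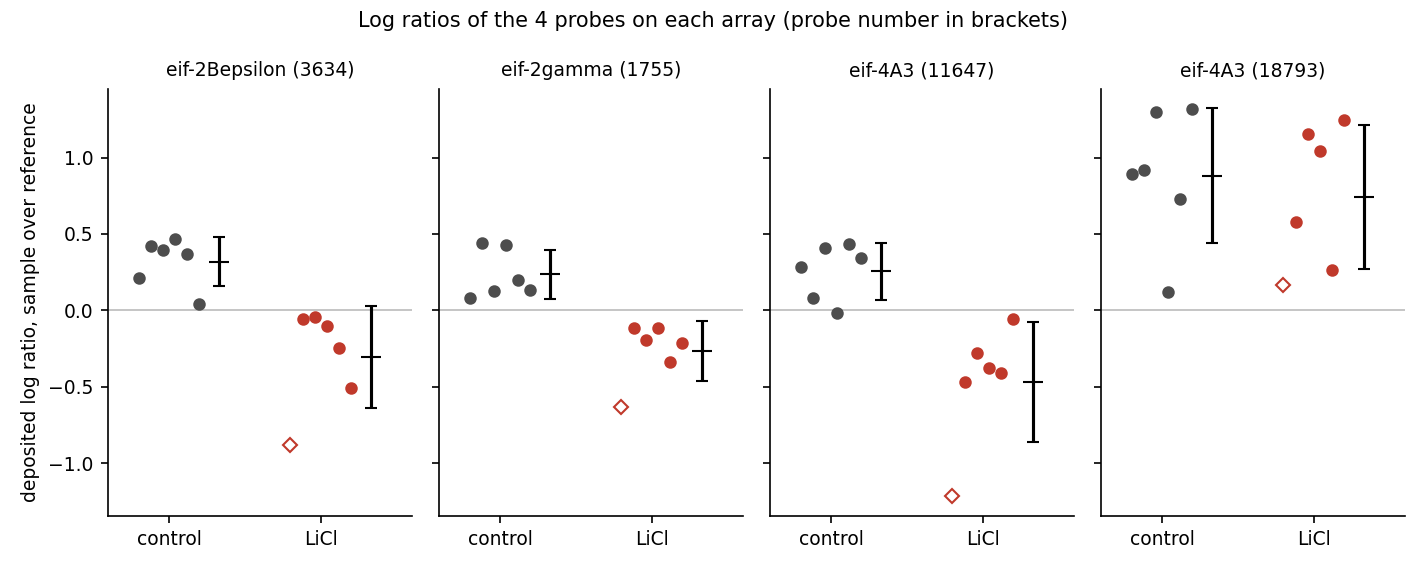
Deposited log ratio (sample over reference) of the 4 probes on each array, 6 control (grey) and 6 LiCl (red), with the mean and SD as black bars; the open diamond is LiCl replicate 1. In the first 3 panels every LiCl point lies below every control point, and in the fourth the groups overlap.

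Since this contrast chose the genes, these differences are a description without a test. In the limma fit over all probes, 3 of the 4 probes were lower past an adjusted p of 0.05, as were 3.50% of all probes. The second eif-4A3 probe was the exception. All LiCl arrays lay below all control arrays for the same 3 probes and for 3.00% of all probes. Differences as low as that of the first eif-4A3 probe or lower were found for 6.72% of all probes, and the shares were 9.37% for eif-2Bepsilon, 13.8% for eif-2gamma and 36.8% for the second eif-4A3 probe.

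**Figure D2:**
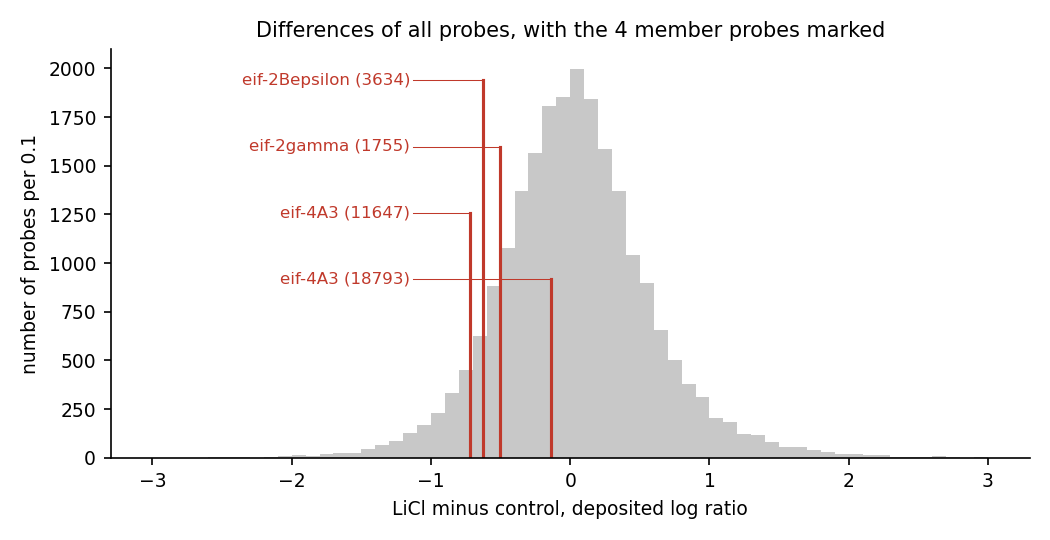
Histogram of the LiCl minus control difference in deposited log ratio over probes between -3 and 3, in bins of 0.1, with the 4 probes marked by red lines. The lines of eif-2Bepsilon (-0.62), eif-2gamma (-0.50) and the first eif-4A3 probe (-0.72) stand on the left shoulder, and that of the second eif-4A3 probe (-0.14) near the centre.

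The calls lay close to the threshold. With 1 array left out, between 0 and 1 of the 4 probes passed, and in 7 of the 12 such fits none did. Calls over all 22370 probes, in either direction, also fell in these fits, from 1789 to between 1181 and 1600. The differences of the 4 probes kept their sign in all 12 fits. They ranged from -0.68 to -0.51 for eif-2Bepsilon, from -0.54 to -0.43 for eif-2gamma and from -0.81 to -0.57 for the first eif-4A3 probe. For the second eif-4A3 probe the range was -0.29 to -0.023. Without LiCl replicate 1, the lowest LiCl array on all 4 probes, the LiCl means were -0.19 ± 0.20 (SD, n = 5) for eif-2Bepsilon, -0.20 ± 0.092 (SD, n = 5) for eif-2gamma and -0.32 ± 0.16 (SD, n = 5) for the first eif-4A3 probe. With the replicate number as a block, 0 of the 4 probes passed, and calls over all probes fell to 1393.

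**Figure D3:**
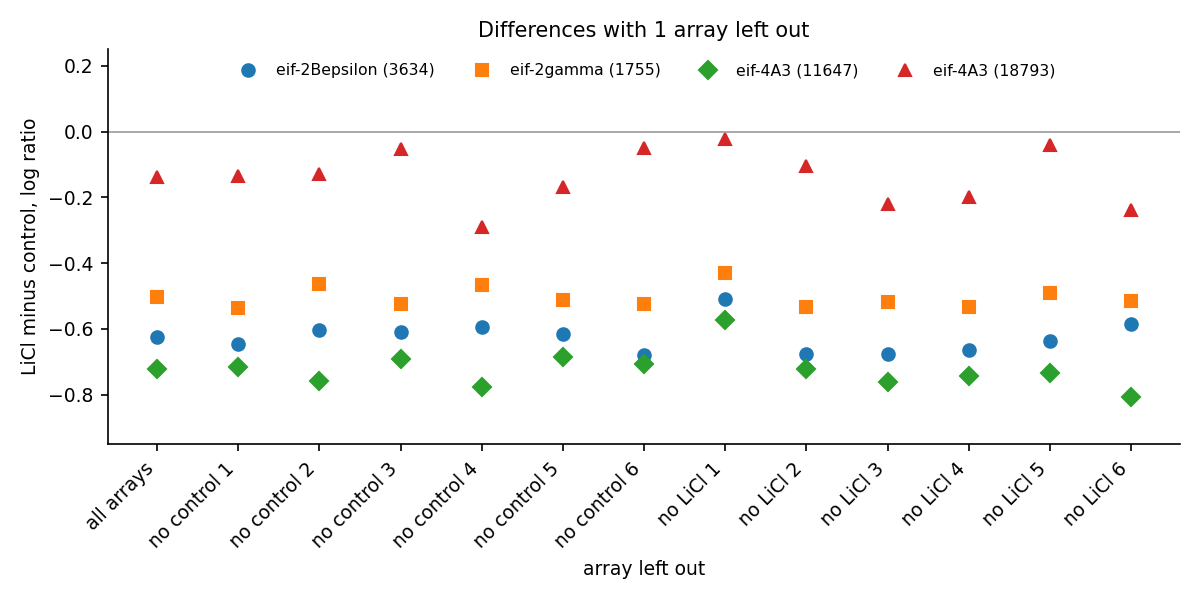
LiCl minus control difference in deposited log ratio of the 4 probes with all arrays and with each array left out in turn (horizontal axis). Leaving out LiCl replicate 1 gave the smallest difference on all 4 probes, and the second eif-4A3 probe (triangles) stayed closest to 0 throughout.

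Taking the mean of both groups against the reference asks a question that the choice of genes did not use. eif-2Bepsilon had a mean log ratio of 0.0069 ± 0.086 (SE, 12 arrays, limma adjusted p = 0.953) with 6 of 12 arrays above 0. For eif-2gamma it was -0.017 ± 0.071 (SE, limma adjusted p = 0.858), again with 6 of 12 above 0, and for the first eif-4A3 probe -0.11 ± 0.095 (SE, limma adjusted p = 0.361). None of these passed, whereas 60.4% of all probes did. For eif-2Bepsilon and eif-2gamma the 6 arrays above 0 were the control arrays, so a mean near 0 describes neither group. The second eif-4A3 probe lay above 0 on all 12 arrays, with a mean of 0.81 ± 0.13 (SE, limma adjusted p = 8.89e-05), and 31.2% of all probes passed in that direction. The difference between the 2 eif-4A3 probes was not itself tested. The test leaves out the spread of the reference RNA and rests on how each array was centred.

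eif-2gamma and eif-2Bepsilon correlated positively within both groups, without passing the test after adjustment. Their deviations from the group means correlated at 0.788 over the 12 arrays. Within LiCl, Pearson's r was 0.866 (exact permutation test, p = 0.0417) and Spearman's rho 0.714 (exact permutation test, p = 0.136). Within control, r was 0.664 (exact permutation test, p = 0.103) and rho 0.657 (exact permutation test, p = 0.175). Over the 6 combinations of gene pair and group, none passed after adjustment, and the lowest adjusted p was 0.108 for r (exact permutation test) and 0.263 for rho (exact permutation test). Leaving out the 2 arrays farthest from the eif-2Bepsilon median left r at 0.837 in LiCl and 0.792 in control, over 4 arrays each. Without LiCl replicate 1 alone, r in LiCl was 0.426.

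eif-4A3, taken as the mean of its probes, correlated positively with the other two in LiCl and negatively in control, again without passing the test after adjustment. Its r with eif-2gamma was 0.804 in LiCl (exact permutation test, p = 0.0542, adjusted p = 0.108; rho 0.486, exact p = 0.356, adjusted p = 0.427) and -0.754 in control (exact permutation test, p = 0.0514, adjusted p = 0.108; rho -0.771, exact p = 0.103, adjusted p = 0.263). Without the 2 arrays farthest from the eif-2gamma median these became -0.839 and -0.111, so they rest on those arrays. With eif-2Bepsilon the r was 0.550 in LiCl (exact permutation test, p = 0.282, adjusted p = 0.282; rho 0.371, exact p = 0.497, adjusted p = 0.497) and -0.585 in control (exact permutation test, p = 0.213, adjusted p = 0.255; rho -0.657, exact p = 0.175, adjusted p = 0.263). Without the 2 arrays farthest from the eif-2Bepsilon median these were 0.685 and -0.834. Without LiCl replicate 1 alone, r of eif-2Bepsilon with eif-4A3 in LiCl was -0.396, so its positive sign rests on that array.

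The 2 eif-4A3 probes, compared after their values were seen, followed each other in LiCl, with r = 0.776 (exact permutation test, p = 0.00556, adjusted p = 0.0111 over 2 groups) and rho = 0.943 (exact permutation test, p = 0.0167, adjusted p = 0.0333). In control r was 0.678 (exact permutation test, p = 0.136, adjusted p = 0.136) and rho 0.314 (exact permutation test, p = 0.564, adjusted p = 0.564). Without the 2 arrays farthest from the median of the first probe, r was 0.737 in LiCl and -0.116 in control. Whether the correlations differ between the groups was not tested.

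**Figure D4:**
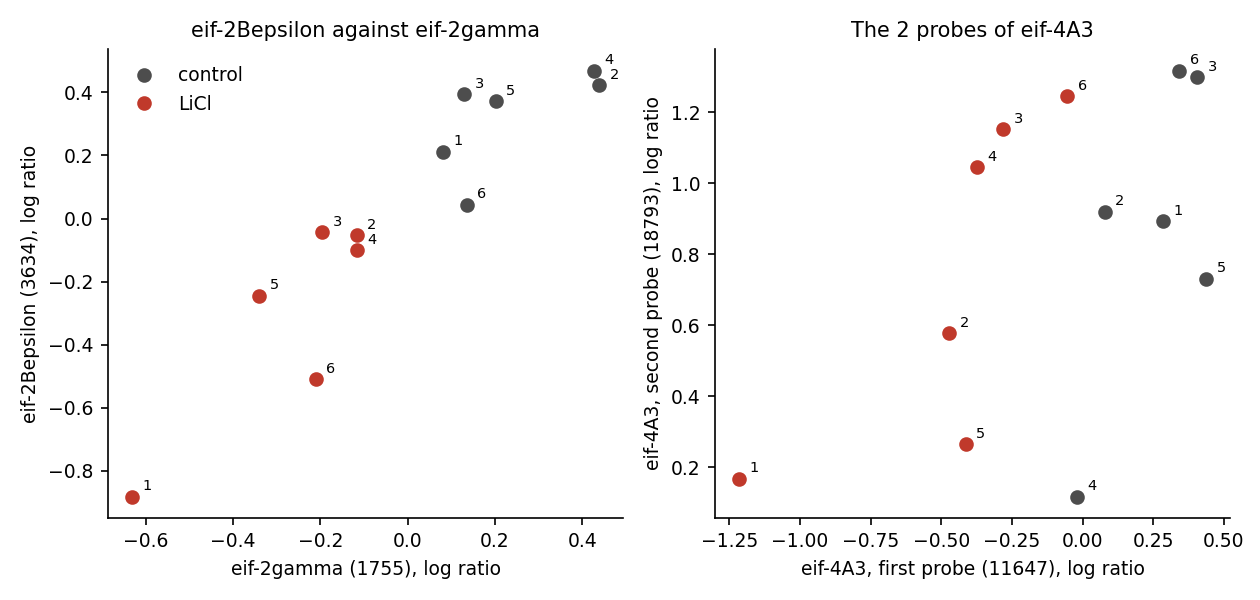
Deposited log ratios of eif-2Bepsilon against eif-2gamma (left) and of the second against the first eif-4A3 probe (right), 1 point per array, control grey and LiCl red, with replicate numbers beside the points. On the left the LiCl arrays lie below 0 on both axes and the control arrays above 0; on the right the groups separate along the first probe and overlap along the second.

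The other measured subunits of the same complexes gave no call. eif-2alpha, which encodes the subunit that stress kinases phosphorylate, had control log ratios of 0.20, 0.17, 0.47, -0.040, -0.73 and 0.52 and LiCl log ratios of -0.90, 0.54, -0.19, -0.0057, 0.22 and 0.11. Its groups overlapped, with a difference of -0.13 ± 0.26 (SE, limma adjusted p = 0.818), and without LiCl replicate 1 the difference was 0.038.

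Among the subunits of eIF2B, eif-2Bbeta and eif-2Balpha encode parts of the regulatory subcomplex that senses phosphorylated eIF2. eif-2Bbeta lay between -0.15 and 0.066 in control and between -0.26 and 0.25 in LiCl, a difference of -0.066 ± 0.13 (SE, limma adjusted p = 0.819). eif-2Balpha lay between -0.25 and 0.27 in control and between -0.47 and 0.63 in LiCl, a difference of 0.053 ± 0.19 (SE, limma adjusted p = 0.902), and without LiCl replicate 2 it was -0.068. LiCl replicate 1, the lowest LiCl array for eif-2Bepsilon, eif-2gamma and both eif-4A3 probes, was also that for eif-2alpha and eif-2Balpha, and the highest LiCl array for eif-2Bbeta. Whether eif-2Bepsilon differed from these subunits in its response was not tested.

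eif-2D encodes a factor that in mammals can deliver tRNA to the ribosome without GTP. Its control log ratios were 0.86, 0.93, 0.58, 0.85, 0.17 and 0.62, and its LiCl log ratios were 0.61, 0.21, 0.36, 0.31, 0.14 and 0.17. The groups overlapped, from 0.17 to 0.93 in control and from 0.14 to 0.61 in LiCl. The difference was -0.37 ± 0.16 (SE, limma adjusted p = 0.192), next in size after the 3 called probes in the initiation factor list. The 4 initiation factor genes other than the chosen ones had a median difference of -0.10, against 0.019 over all probes, and 3 of the 4 were negative.

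**Figure D5:**
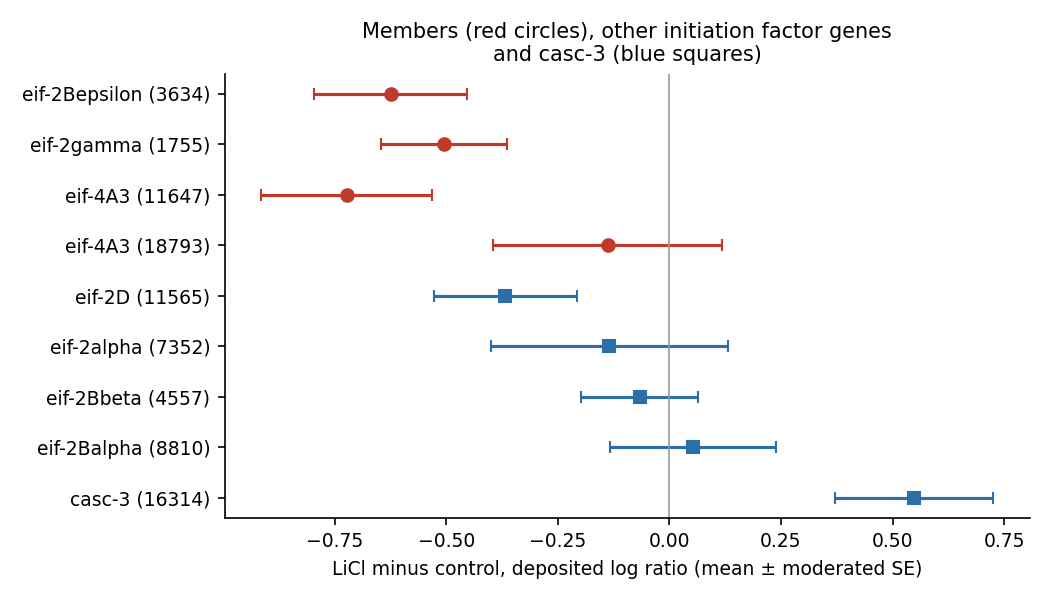
LiCl minus control difference in deposited log ratio with its moderated SE for the chosen probes (red circles), the other measured initiation factor genes and casc-3 (blue squares). The chosen probes other than the second eif-4A3 probe lie between -0.72 and -0.50, the other initiation factors between -0.37 and 0.053, and casc-3 at 0.55.

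The exon junction complex list held casc-3, whose human counterpart is a core component of the complex together with eIF4A3. It moved the other way from the first eif-4A3 probe without passing the test. Its control log ratios were 0.11, -0.071, 0.16, 0.29, 0.65 and 0.21, and its LiCl log ratios were 0.37, 0.40, 0.98, 0.84, 0.97 and 1.06. All LiCl arrays lay above 5 of the 6 control arrays, and control replicate 5 lay within the LiCl range. The difference was 0.55 ± 0.18 (SE, limma adjusted p = 0.0811). It passed with array weights (0.66, limma adjusted p = 0.0215) and without the 4 arrays of lowest weight (0.79, limma adjusted p = 0.0319). Those 4 arrays were LiCl replicates 1, 2 and 6 and control replicate 5. For casc-3, LiCl replicates 1 and 2 were the lowest LiCl arrays and control replicate 5 the highest control array. LiCl replicate 6 was the highest LiCl array. Both settings give less weight to the same arrays, so they are not independent checks.

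Across 11 lists of translation and related genes, of which 9 held a measured gene, 24 genes other than the chosen ones were measured. The elongation and target of rapamycin lists held none. Ribosomal proteins, aminoacyl-tRNA synthetases, the exon junction complex and GSK-3 relatives had 1 measured gene each, so these pathways were barely covered. In limma 0 of the 24 rose and 0 fell, beside 4.50% of all probes called higher and 3.50% called lower. Of the 24, 4 had an unadjusted p under 0.05, 3 of them lower. Over all probes 22.8% had an unadjusted p under 0.05, and 10.7% had one and were lower. Differences were negative for 16 of the 24 genes and for 48.3% of all probes, and the genes' median was -0.11. Ribosome biogenesis had 10 measured genes, 0 of them called, with nol-14 nearest (-0.53 ± 0.19, SE, limma adjusted p = 0.107). The mitochondrial methionyl-tRNA synthetase gene mars-2 differed by -0.43 ± 0.17 (SE, limma adjusted p = 0.147), the helicase gene ddx-52 by -0.41 and the ribosomal protein gene rpl-37.1 by 0.27. In the list of stress and unfolded protein responses crld-1 was nearest at -0.38 (limma adjusted p = 0.251). gskl-1, a relative of gsk-3, differed by -0.20 ± 0.35 (SE, limma adjusted p = 0.794) and by 0.020 without control replicate 1. gcna-1 (-0.072, limma adjusted p = 0.827) was caught by the symbol pattern of the initiation list and is not an initiation factor. The counts and the median over the 24 genes include it. gsk-3 itself, the eIF2alpha kinase genes pek-1 and gcn-2 and the target of rapamycin kinase gene let-363 have no probe under those names and are not analysed here.

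Some germline genes fell on the same arrays. In the list of 12 germline and meiosis genes 3 fell and none rose, beside 3.50% of all probes called lower, with a median difference of -0.23. This list was picked with earlier results of these data known, so its count is a description and not an independent test. The synaptonemal complex gene syp-6 fell by 0.77 (limma adjusted p = 0.00931), the germ granule gene mip-1 by 0.72 (limma adjusted p = 0.0134) and enri-2 by 0.96 (limma adjusted p = 0.0404). enri-2 stayed past the threshold in 3 of the 12 fits with 1 array left out, and none of the 3 passed without the 4 arrays of lowest weight. The list mean lay between 0.94 and 1.26 on control arrays and between 0.35 and 1.01 on LiCl arrays. On LiCl replicate 1, the lowest LiCl array for the chosen genes, it was 0.76, within the LiCl range. Of 9 maternal and oocyte genes memi-2 fell (-0.63 ± 0.14, SE, limma adjusted p = 0.0148) on 1 of its 2 probes and none rose. The list mean ranged from -0.24 to 0.26 in control and from -0.24 to 0.38 in LiCl. In this list the memi genes had control means of 1.40 to 1.72 and the cpg genes -2.37 to 0.18. The list mean therefore joins unlike values and is not a measure of oocyte amount. The part of germline amount in the values of the chosen genes was not tested.

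The other tissue lists gave calls in both directions, beside 4.50% of all probes called higher. They too were picked with earlier results of these data known, so their counts are a description. Among 10 sperm genes, spe-51 rose by 2.07 (limma adjusted p = 0.0281). spe-57, with no value on control replicate 1, fell by 0.88 (limma adjusted p = 0.0383), and the list mean ranged from 0.085 to 1.09 in control and from 0.11 to 1.26 in LiCl. Of 24 neuropeptide genes nlp-55 rose by 0.72 (limma adjusted p = 0.0385) and none fell, with list means of -1.30 to -1.07 and -1.27 to -0.92. The intestine list held 32 genes, nearly all carboxylesterases, of which 4 rose, cest-15 (2.22), cest-1.1 (1.61), cest-2.2 (0.80) and cest-25 (0.74), with list means of -0.64 to -0.19 and -0.40 to 0.043. cest-1.2 passed on 1 of its 2 probes (0.86, limma adjusted p = 0.0461) and not on the one with the higher mean log ratio (0.26, limma adjusted p = 0.723), which the count uses. Several of these calls lay close to the threshold. With 1 array left out they held in all 12 fits for cest-15 and cest-1.1, in 11 for cest-2.2, in 4 each for spe-51 and spe-57, and in 3 each for nlp-55 and cest-25. With the replicate block the calls were lost for cest-2.2 (limma adjusted p = 0.0576), nlp-55 (0.0548) and spe-57 (0.0593), and without the 4 arrays of lowest weight for spe-51, spe-57, nlp-55, cest-2.2 and cest-25, where spe-57 differed by -0.45 (limma adjusted p = 0.260).

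Position on the chromosome was also followed, through the 3 protein-coding genes on either side of each chosen gene in the annotation. Of these 18 neighbours 5 had a named probe, and in limma 0 were called. etc-1, next to eif-2Bepsilon, differed by -0.18 ± 0.15 (SE, limma adjusted p = 0.528). Y39G10AR.9, 3 places from eif-2gamma, differed by 0.067 (limma adjusted p = 0.882). Y65B4A.4, next to eif-4A3, differed by -0.14 (limma adjusted p = 0.769) and Y65B4A.2 by -0.12 (limma adjusted p = 0.726). Y65B4A.7 lay 3 places from eif-4A3 and differed upward, by 1.70 ± 0.50 (SE, limma adjusted p = 0.0576). It passed in 3 of the 12 fits with 1 array left out and with the replicate block (limma adjusted p = 0.0324).

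Genes most like each chosen gene were sought among 8522 named probes with values on every array, by the correlation of deviations from the group means over the 12 arrays. Closest to eif-2Bepsilon were F43G6.3 (0.941), R13D11.1 (0.930) and Y49F6B.9 (0.895). tipn-1 (0.925), R08C7.11 (0.893) and T24C4.3 (0.871) came closest to eif-2gamma, and T26G10.1 (0.906), F58F12.1 (0.903) and F56C3.1 (0.895) to eif-4A3. For each gene these were the highest of 8522 correlations, so they are high by selection, and they were not tested. All 12 arrays are shared, and without LiCl replicate 1 the same probes gave values between 0.769 and 0.887. Of these 9, F43G6.3 rose by 0.81 (limma adjusted p = 0.0179) and T24C4.3 fell by 0.64 (limma adjusted p = 0.0455), while the other 7 were not called. The T24C4.3 call held in 2 of the 12 fits with 1 array left out.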

How the data were processed

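Gene expression was measured on 12 two-colour arrays. The deposited table holds the authors' processed log ratio per probe and array, read as log2, with the tools, the log base and any spot filter not given in the sources used here. Gene names came from the platform annotation (8757 of 22370 probes), updated by gene identifier to RefSeq WBcel235 symbols for 8724. The chosen genes and all lists were picked with earlier results of these data known.

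Group differences and the mean of both groups were estimated on the deposited values with lmFit and eBayes (limma 3.58.1, R 4.3.3; two-sided, no covariates), Benjamini-Hochberg adjusted over all probes, threshold 0.05. Lists used symbol patterns and, per gene, the probe with the highest mean. Within-group correlations used two-sided exact permutation tests over 720 orderings. Named were all initiation factor genes, called or nearest genes of other lists (at most 4), neighbours, and 3 most similar probes per gene. The fit was tested on simulated data. Figures used matplotlib 3.10.9. Alternatives changed the normalization, variance model, weights, block, filters, threshold and arrays. Precision is limited by the number of arrays.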

Additional observations from a re-analysis of the deposited data

Results flagged for a closer look

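Among 20 groups of 6 arrays checked for the initiation factor genes, casc-3 and gskl-1, 2 had 1 array standing far from the other 5, where chance gives about 1 in 20, or 1. On the first eif-4A3 probe (11647) LiCl replicate 1 lay at -1.22, against -0.47 for the next array. On the eif-2Bbeta probe (4557) the same array lay at 0.25, against -0.093 for the next, in the opposite direction.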

How the results depend on the processing

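The chosen genes' differences kept their sign under every setting that gave them a value: eif-2Bepsilon from -0.68 to -0.44, eif-2gamma from -0.54 to -0.43 and eif-4A3 from -0.72 (first probe alone) to -0.14 (second probe alone). Leaving out 1 array gave -0.68 to -0.51, -0.54 to -0.43 and, for the eif-4A3 mean, -0.53 to -0.30. Their calls did not hold: the number of initiation factor genes called lower, 2 with the probe of highest mean per gene, was 1 with the spread of each array equalised, 0 with trend and robust moderation, 0 with the replicate block, 0 without the 4 arrays of lowest weight, and 0 to 1 with 1 array left out. The 4 arrays of lowest weight were LiCl replicates 1 (the lowest), 2 and 6 and control replicate 5. That fit therefore had fewer LiCl than control arrays. Leaving out the less variable part of the probes removed all 4 probes of the chosen genes. Other pathway genes called numbered 0, but 1 (casc-3) with array weights and 1 without the 4 arrays of lowest weight, and 0 with any 1 array left out. All calls over the array numbered 1789, and 622 without the less variable part of the probes, 838 without the 4 arrays of lowest weight, 2836 at an adjusted p under 0.10, 1393 with the replicate block and 1181 (without control replicate 4) to 1600 with 1 array left out. Replicate numbers were not used as pairs in the main comparison, because deviations of same-numbered arrays correlated above 0.1 in 1 of 6 pairs.

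Means over the reference near 0 changed sign: eif-2Bepsilon was -0.022 with the spread equalised and -0.019 to 0.064 with 1 array left out, and eif-2gamma was 0.012 without the 4 arrays of lowest weight and -0.037 to 0.020 with 1 array left out. For the eif-4A3 probes these ranges were -0.15 to -0.032 (first) and 0.76 to 0.89 (second). Correlations with 1 array left out ranged in LiCl from 0.426 to 0.963 (eif-2Bepsilon with eif-2gamma), -0.396 to 0.902 (eif-2Bepsilon with eif-4A3) and 0.322 to 0.916 (eif-2gamma with eif-4A3), and in control from 0.548 to 0.806, -0.815 to -0.427 and -0.886 to -0.601. Small differences changed sign with 1 array left out, with ranges of -0.30 to 0.038 for eif-2alpha, -0.068 to 0.15 for eif-2Balpha, -0.42 to 0.020 for gskl-1, -0.066 to 0.20 for Y39G10AR.9 and -0.23 to 0.056 for Y65B4A.4, which was 0.0047 without the 4 arrays of lowest weight. Of 595 other values of single named probes, 510 kept their direction and side of the threshold, 73 lost a call and 6 gained one. The cause of these changes was not tested.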
